A study of Homo sapiens with 24 samples.

Results

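The miR-148/miR-152 family is a group of human microRNAs (miRNAs) made from 3 genes on separate chromosomes, MIR148A, MIR148B and MIR152. The 5 products described here are the 3p arms miR-148a-3p, miR-148b-3p and miR-152-3p and the 5p arms miR-148a-5p and miR-148b-5p, out of 2652 mature miRNAs counted. They were chosen by name, as products of this family, and no measured value decides membership. The family itself was picked with results of these data known, so its values place it among the other miRNAs and are no independent evidence that it stands out.

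Small RNA was sequenced from SBC-3, an established line of human small cell lung cancer labelled wild type, in 24 libraries of 8 groups with 3 replicates each. The groups were siSFPQ-2 and siSFPQ-3 (small interfering RNAs, siRNAs, against SFPQ), siNONO-3 and siNONO-4 (siRNAs against NONO), siCtrl (the control siRNA), ASO-NEAT1-1047 and ASO-NEAT1-1473 (antisense oligonucleotides, ASOs, against NEAT1) and ASO-Ctrl (the control ASO). Every group, controls included, was reverse transfected with 10 nM of its reagent and harvested at 72 h. SFPQ and NONO are RNA-binding partner proteins of the nucleus, and NEAT1 is the long noncoding RNA around which both assemble in paraspeckles. The design asked how their loss changes miRNAs. The labels do not say whether replicates were separate cultures, so p-values measure the spread between these libraries only, and small RNA tables do not show how far the targets were depleted.

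As background, a miRNA gene is transcribed into a primary transcript, from which Drosha and then Dicer cut a duplex of a 5p and a 3p arm. The arm kept by Argonaute guides it to messenger RNAs, mainly through the seed, bases 2 to 8 of the mature miRNA, while the other arm is mostly degraded. In this family the 3p arm is the usual guide. miR-148a-3p, miR-148b-3p and miR-152-3p are known to repress DNA methyltransferase messenger RNAs such as that of DNMT1, and to bind the transcript of the immune checkpoint molecule HLA-G, and they are often described as tumour suppressors that are silenced by methylation in cancers.

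The mature sequences are given 5′ to 3′ from RefSeq (GRCh38.p14) because their likeness bears on every comparison between the genes. Sequences were matched for 4 of the 5 products, and that of miR-152-5p, the other arm of the miR-152 hairpin, is shown beside them. Capitals mark the seed.
hsa-miR-148a-3p: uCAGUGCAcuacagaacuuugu
hsa-miR-148b-3p: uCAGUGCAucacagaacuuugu
hsa-miR-152-3p: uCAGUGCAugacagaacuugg
hsa-miR-148b-5p: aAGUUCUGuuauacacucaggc
hsa-miR-152-5p: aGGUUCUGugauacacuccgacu
The 3p arms share the seed CAGUGCA, which no other mature miRNA among the 2370 in the RefSeq table carries. Counted from 1 at the 5′ end, with the first-named miRNA's base first, miR-148a-3p and miR-148b-3p differ by C9U and U10C. miR-148b-3p and miR-152-3p differ by C10G and U20G, and miR-148a-3p and miR-152-3p by C9U, U10G and U20G. The 5p arms shown differ from each other by A2G, U10G, A19C and G21A. A2G lies in the seed, which is AGUUCUG in miR-148b-5p (also the seed of miR-6874-3p) and GGUUCUG in miR-152-5p.

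On hg38, miR-148a-3p (MIMAT0000243) lies at chr7:25949922-25949943 and miR-148a-5p (MIMAT0004549) at chr7:25949960-25949981, both on the minus strand, in an intergenic hairpin whose nearest coding gene, NFE2L3, lies 202297 bases away. miR-148b-3p (MIMAT0000759, chr12:54337278-54337299) and miR-148b-5p (MIMAT0004699, chr12:54337240-54337261) lie on the plus strand in an intron of COPZ1, intron 1 or 2 by transcript in GENCODE v29. miR-152-3p (MIMAT0000438, chr17:48037174-48037194) lies on the minus strand in intron 1 of COPZ2. COPZ1 and COPZ2 encode the zeta subunits of the coatomer of Golgi transport vesicles, and each miRNA is read on its host gene's strand. Each product had 1 locus in the tables.

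The libraries held 2038382 to 4279644 miRNA counts. All 5 products passed the filter on low counts, which kept 626 of the 2652 miRNAs. On the second principal component 2 libraries had the highest scores, siCtrl replicate 1 (11.7) and ASO-NEAT1-1047 replicate 3 (10.2). Values without them are given for the 5 products where they moved a result. Of the markers listed for a neuroendocrine line, miR-9-5p (46767 to 106856 CPM, counts scaled to the library size) and miR-7-5p (6849 to 19907 CPM) were abundant, whereas miR-375-3p had 1 to 39 counts per library.

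The 3p arms were among the abundant miRNAs and the 5p arms were not. Over the 24 libraries, miR-148b-3p averaged 8043 CPM (rank 30 of the 626), miR-148a-3p 6167 CPM (rank 37) and miR-152-3p 2142 CPM (rank 57). miR-148b-5p averaged 36.2 CPM (rank 292, 55 to 170 counts per library) and miR-148a-5p 16.3 CPM (rank 348, 12 to 108 counts). miR-152-5p had 6 to 32 counts per library, 435 in all, and its levels are not interpreted further. The abundant arm of each hairpin was thus the 3p arm in every library. The 3p rows rest on 3896 or more counts per library and those of miR-148a-5p on 12 or more. The coefficient of variation of miR-148a-5p within a group ran from 10.3% with siSFPQ-2 to 55.5% in siCtrl.

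The 3p rows did not behave as separate measurements. The count of miR-148b-3p, which differs from each of the others by 2 bases, was 95.1% to 100.1% of the sum of the miR-148a-3p and miR-152-3p counts in every library, with a median of 97.1%. By group this share was 99.1 ± 0.905% with siSFPQ-2 and 97.3 ± 0.317% with siSFPQ-3 against 95.5 ± 0.427% in siCtrl (SD, n = 3). miR-148b-3p thus took close to the same part of the 3 rows in every group, with group means of 48.9% to 49.8%. The log2 ratio of miR-148b-3p to miR-148a-3p had an SD of 0.038 over the 24 libraries, the 37th smallest of the 3240 pairs among the 81 miRNAs with a mean of at least 1000 CPM, where the median pair had 0.46.

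Other near-identical rows also kept close counts, and some were closer than the 3p rows. Among 390 miRNAs with a RefSeq sequence and a mean of at least 20 counts, 48 pairs kept their counts within 10% of one another across all 24 libraries. Of these pairs, 21 differed at 0 or 1 base and 10 at 2 bases, among them miR-146a-5p with miR-146b-5p and miR-26a-5p with miR-26b-5p. The other 17 pairs differed at more bases. The counting of reads that align to more than 1 locus is not described in the sources used here. Shared reads and a shared response cannot be told apart for the 3p rows. miR-148b-5p differs from each 3p arm at 14 or more bases and from miR-152-5p at 4 of 22. However, 2 of the close pairs also differ at 4 bases (let-7b-5p with let-7g-5p, and let-7g-5p with miR-98-5p). A further 6 close pairs differ at 15 bases, 1 at 16 and 1 at 18. Bases were compared from the 5′ end without a shift, so a count of differences does not show that rows are separate. miR-148b-5p was not compared with miR-148a-5p by sequence.

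**Figure D1:**
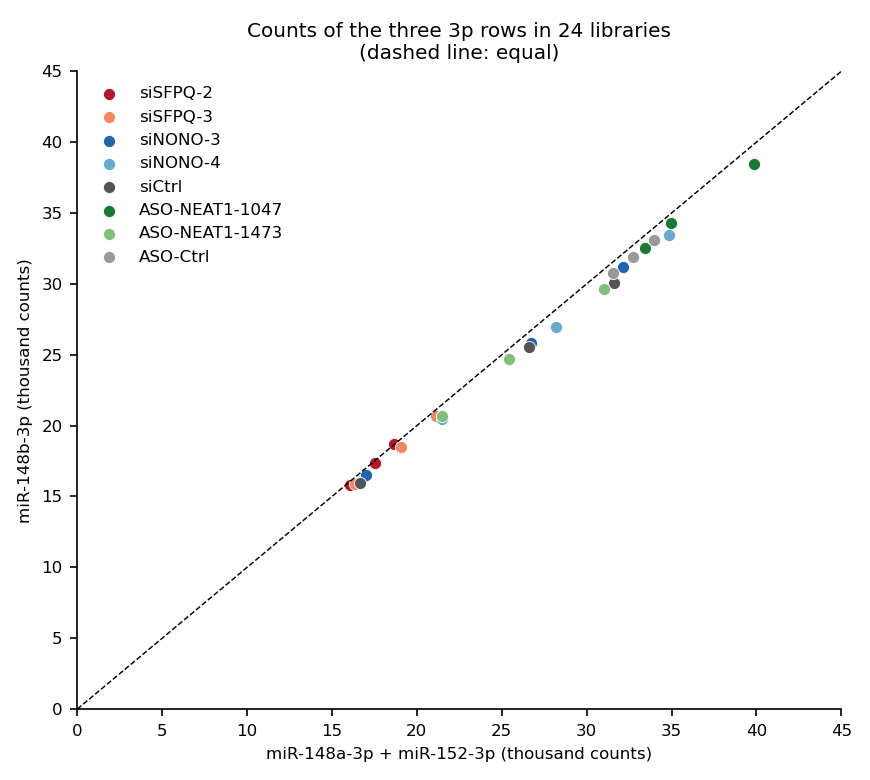
Counts of miR-148b-3p (vertical axis, counts divided by 1000) against the summed counts of miR-148a-3p and miR-152-3p (horizontal axis, counts divided by 1000), 1 point per library, coloured by group, with a dashed line of equality. All 24 points lie along the line, at 95.1% to 100.1% of the sum.

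After SFPQ knockdown, 4 of the 5 products were lower than in siCtrl, where 22.7% of the 626 tested miRNAs were lower 25.6% were higher and 48.2% changed in all. Lower calls were common among abundant miRNAs, at 51.9% of the 81 with a mean of at least 1000 CPM, the class to which the 3p arms belong. The mean level over the 6 siSFPQ libraries was 49.4% of that in siCtrl for miR-148a-3p, 52.2% for miR-148b-3p, 54.7% for miR-152-3p and 61.4% for miR-148b-5p. miR-148a-5p stood at 93.7%. Overlap between groups was not counted over all tested miRNAs, so its absence below describes each product and is not shown to be particular to the family. In bulk libraries, fewer cells of a kind and less miRNA per cell cannot be told apart.

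miR-148a-3p had 3924, 4564 and 4462 CPM with siSFPQ-2 and 3111, 3273 and 2995 CPM with siSFPQ-3, against 9208, 6596 and 6801 CPM in siCtrl replicates 1, 2 and 3. All 6 siSFPQ libraries lay below the lowest siCtrl library, and siCtrl replicate 1 was the highest of the group. The log2 fold change was -1.04 ± 0.13 (SE, 6 libraries against 3), with an adjusted p of 4.86e-07 by the quasi-likelihood test of edgeR (Benjamini-Hochberg over all tested miRNAs). Without siCtrl replicate 1 it was -0.90.

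miR-148b-3p had 5235, 5905 and 5796 CPM with siSFPQ-2 and 4185, 4529 and 4111 CPM with siSFPQ-3, against 11260, 8487 and 8764 CPM in siCtrl. The groups did not overlap, and the same siCtrl library was highest. The log2 fold change was -0.95 ± 0.12 (adjusted p = 6.93e-07), and -0.85 without siCtrl replicate 1.

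miR-152-3p had 1374, 1332 and 1426 CPM with siSFPQ-2 and 1198, 1363 and 1236 CPM with siSFPQ-3, against 2628, 2246 and 2380 CPM in siCtrl. Again no siSFPQ library reached the siCtrl range. The log2 fold change was -0.87 ± 0.11 (adjusted p = 1.62e-06), and -0.85 without siCtrl replicate 1. Since the 3p rows may hold each other's reads, these 3 calls may not be separate cases.

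The passenger arm miR-148b-5p was also lower. It had 23.8, 25.2 and 20.1 CPM in the siSFPQ-2 libraries and 21.5, 25.4 and 25.6 CPM with siSFPQ-3, against 38.2, 38.2 and 39.1 CPM in siCtrl. All 6 siSFPQ libraries were below every siCtrl library, and the siCtrl values lay close together although they rest on only 71 to 115 counts each. The log2 fold change was -0.70 ± 0.17 (adjusted p = 0.00139), and -0.74 without siCtrl replicate 1. This call depended on scaling and filtering, with -0.25 on library totals (adjusted p = 0.232) and -0.70 with no filter on low counts (adjusted p = 0.0589).

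miR-148a-5p, the passenger arm of the miR-148a hairpin, did not pass. It had 13.9, 17.0 and 15.4 CPM with siSFPQ-2 and 8.60, 7.67 and 9.56 CPM with siSFPQ-3, against 20.6, 11.3 and 6.61 CPM in siCtrl. The siCtrl libraries alone spanned the siSFPQ range, with 55, 34 and 12 counts. The log2 fold change was -0.18 ± 0.36 (adjusted p = 0.701), with a 95% interval of -0.92 to 0.56, and 0.29 without siCtrl replicate 1.

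**Figure D2:**
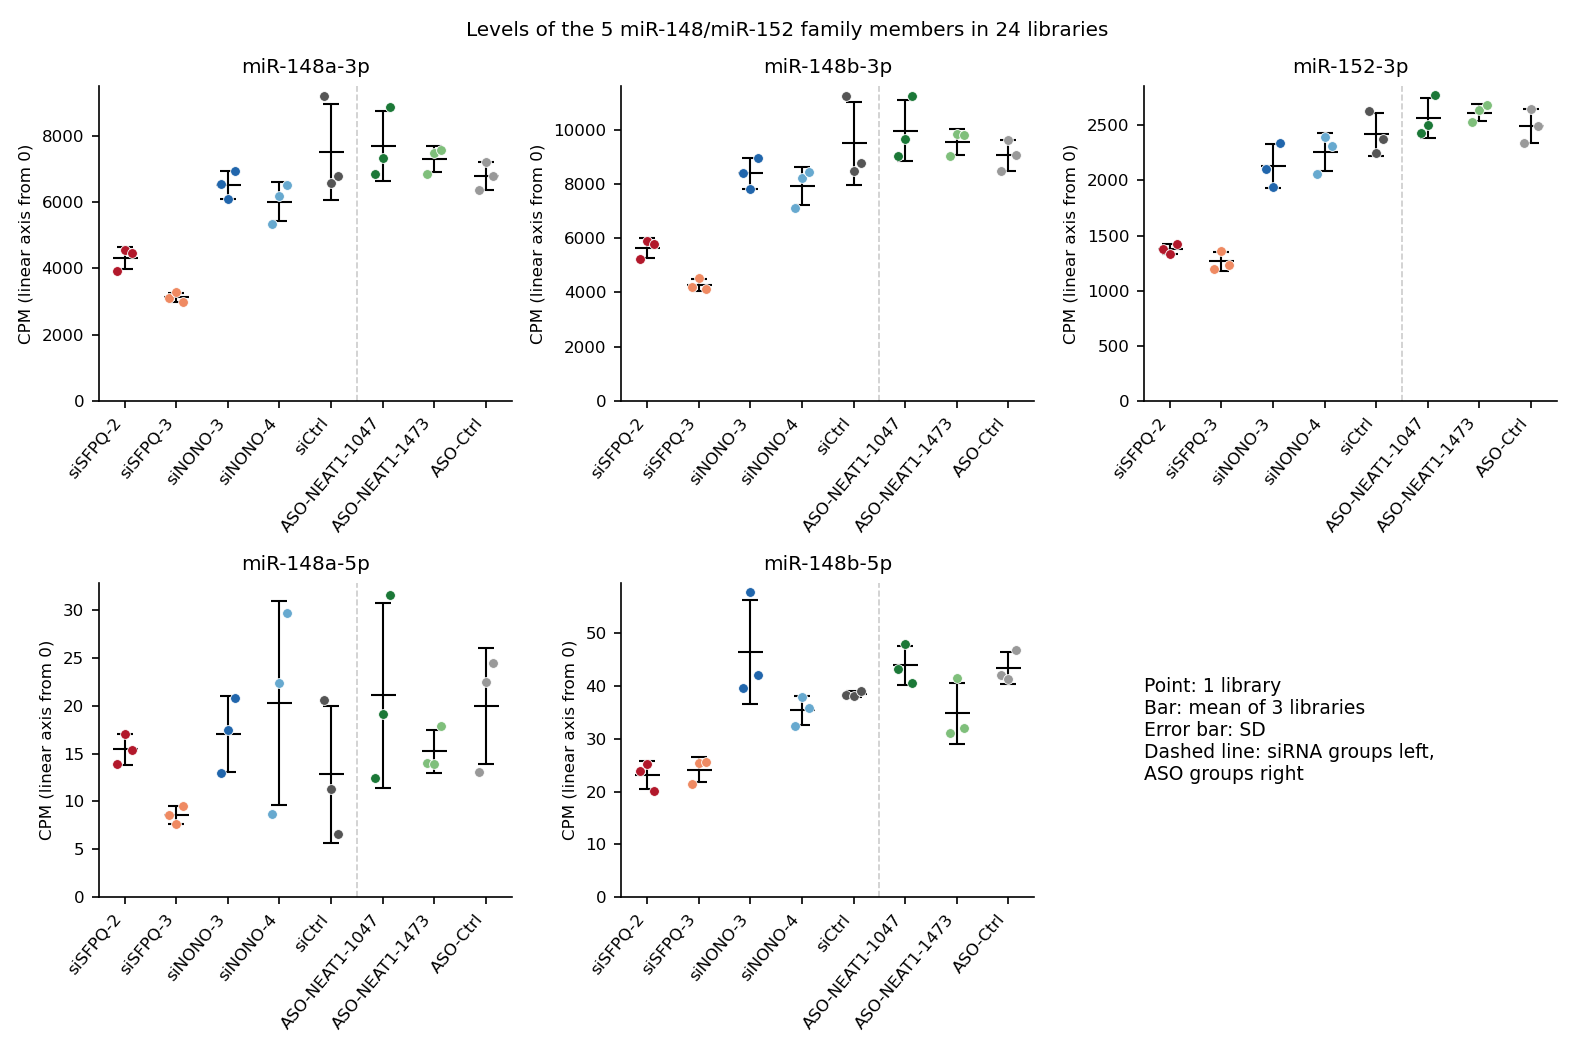
CPM of the 5 products in 24 libraries, 1 panel each with a linear axis from 0. Points are libraries, bars the mean of 3 libraries, error bars the SD, and a dashed line parts the siRNA groups from the ASO groups. The 6 siSFPQ libraries lie below every siCtrl library for miR-148a-3p, miR-148b-3p, miR-152-3p and miR-148b-5p, while the groups overlap for miR-148a-5p. Such separation was not counted over all tested miRNAs.

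The 4 lower products also passed with each siRNA on its own, though not under every setting. For siSFPQ-2, where 38.7% of tested miRNAs changed (23.2% higher and 15.5% lower), the log2 fold changes were -0.80 ± 0.15 for miR-148a-3p, -0.75 ± 0.14 for miR-148b-3p, -0.81 ± 0.14 for miR-152-3p and -0.74 ± 0.20 for miR-148b-5p, with adjusted p from 6.47e-05 to 0.00539. For siSFPQ-3, where 44.4% changed (22.7% higher and 21.7% lower), they were -1.27 ± 0.15, -1.15 ± 0.14, -0.93 ± 0.14 and -0.67 ± 0.19 in the same order, with adjusted p from 4.40e-07 to 0.00768. miR-148a-5p had 0.24 ± 0.41 with siSFPQ-2 and -0.60 ± 0.42 with siSFPQ-3, neither past the threshold, and 0.66 and -0.082 without siCtrl replicate 1. In a model of siSFPQ-2 and siCtrl alone, miR-148a-3p (adjusted p = 0.0536), miR-148b-3p (adjusted p = 0.0621) and miR-148b-5p (adjusted p = 0.144) missed the threshold with siSFPQ-2. miR-148b-5p also missed it with siSFPQ-2 on library totals (-0.36, adjusted p = 0.170) and with no filter (-0.75, adjusted p = 0.118). With siSFPQ-3, miR-148b-5p missed it on library totals (-0.15, adjusted p = 0.569), on spike-in totals (-0.22, adjusted p = 0.504), with no filter (adjusted p = 0.230), with only the compared groups (adjusted p = 0.105) and without siSFPQ-3 replicate 1 (adjusted p = 0.0559). miR-152-3p missed it with siSFPQ-3 on spike-in totals (-0.47, adjusted p = 0.0687).

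The siSFPQ-3 libraries were below all siSFPQ-2 libraries for miR-148a-3p, miR-148b-3p and miR-148a-5p, but not for miR-152-3p or miR-148b-5p. None of the 5 products passed in the direct test of siSFPQ-3 against siSFPQ-2, which called 4 of the 626 miRNAs (0.639%). The log2 differences were -0.47 ± 0.15 for miR-148a-3p (unadjusted p = 0.00505, adjusted p = 0.316) and -0.40 ± 0.14 for miR-148b-3p (unadjusted p = 0.00917, adjusted p = 0.395). On spike-in totals both turned, to 0.10 and 0.16, where the median of all tested miRNAs was 0.46. For miR-152-3p the difference was -0.12 ± 0.14 and for miR-148b-5p 0.06 ± 0.20. The largest was that of miR-148a-5p, -0.84 ± 0.41 (unadjusted p = 0.0506, adjusted p = 0.678), on 35 to 54 counts per library. It was -0.28 on spike-in totals.

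**Figure D3:**
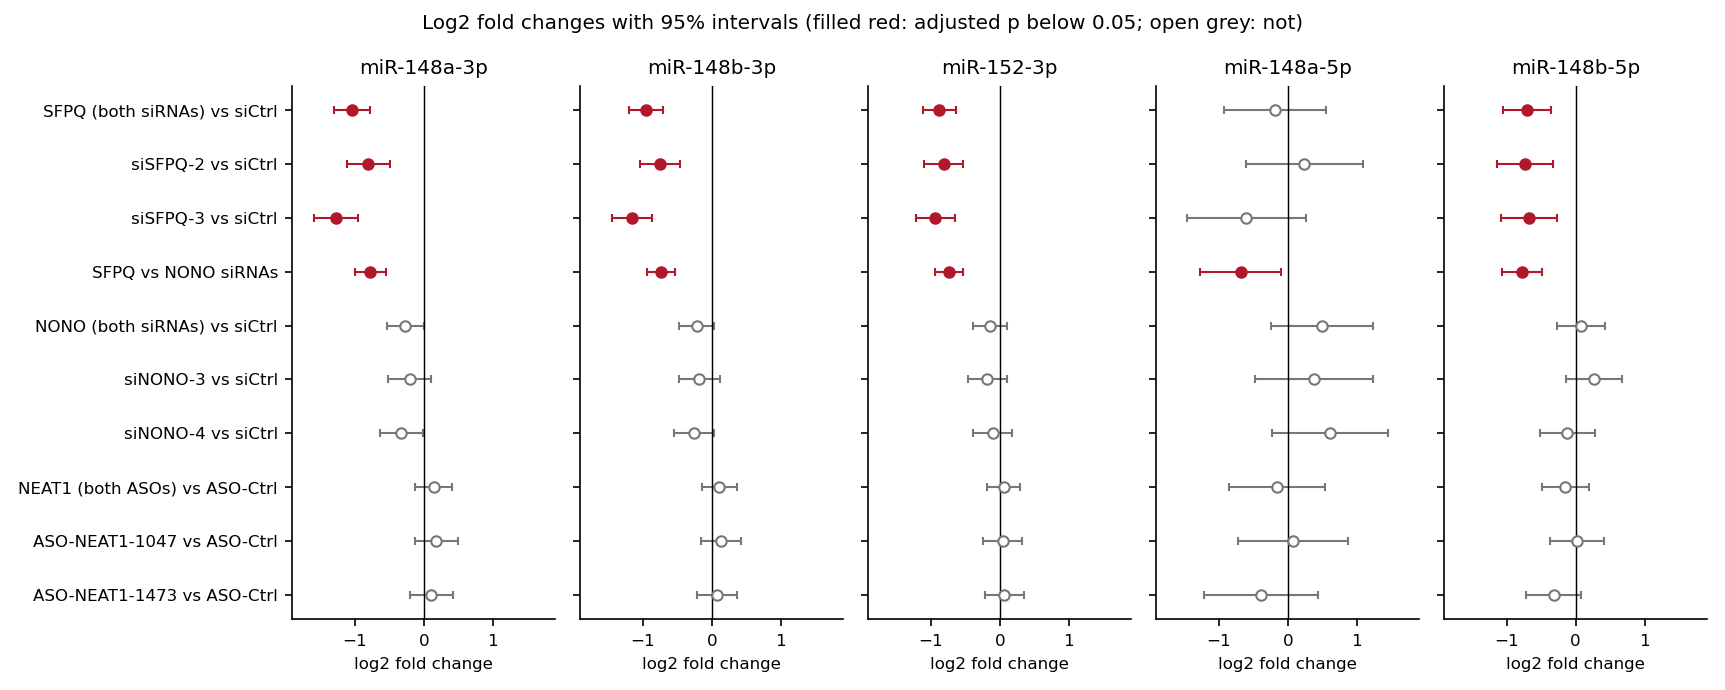
Log2 fold changes (horizontal axis) of the 5 products in each comparison, with 95% intervals, from the model of all 24 libraries. Filled red points have an adjusted p below 0.05 and open grey points do not, and the only filled points are in comparisons of siSFPQ groups.

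Among all 626 miRNAs ordered from the most negative log2 fold change after SFPQ knockdown, miR-148a-3p ranked 65, miR-148b-3p 73, miR-152-3p 84, miR-148b-5p 122 and miR-148a-5p 262. The median over the 5 products was -0.87 and that over all tested miRNAs 0.02. With library totals the median of all tested miRNAs was 0.47 and with spike-in totals 0.21. On these scales the log2 fold changes were -0.57 and -0.84 for miR-148a-3p, -0.49 and -0.76 for miR-148b-3p and -0.42 and -0.68 for miR-152-3p, and all of these passed. miR-148b-5p passed on spike-in totals (-0.52, adjusted p = 0.0465) but not on library totals.

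**Figure D4:**
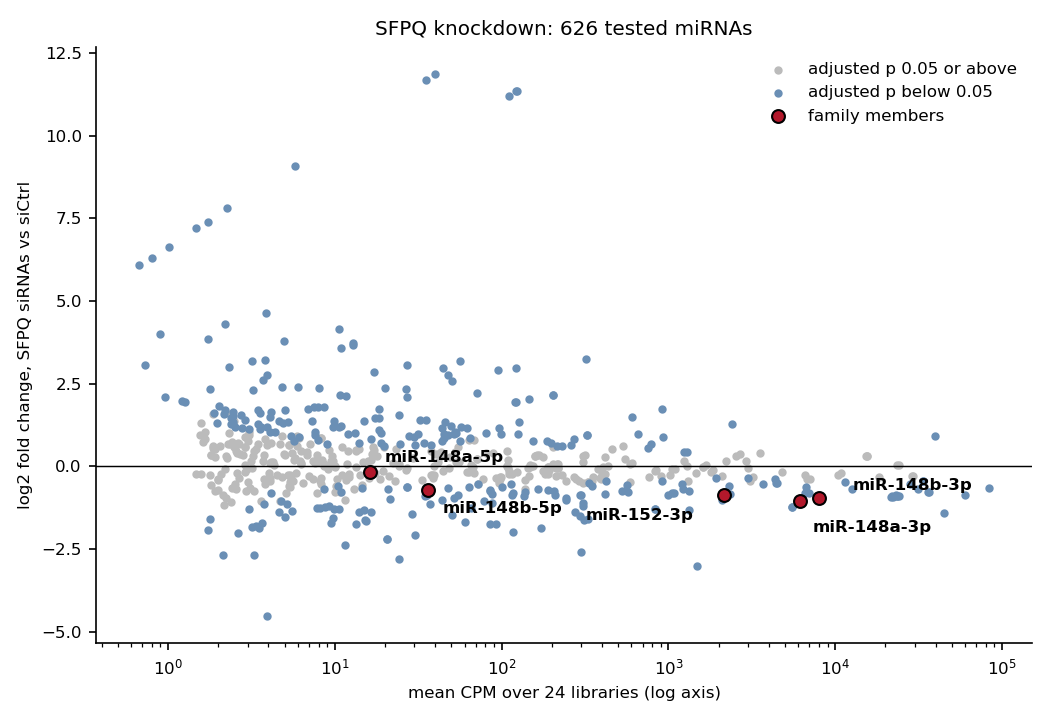
Log2 fold change after SFPQ knockdown (vertical axis) against the mean CPM over 24 libraries (horizontal log axis) for the 626 tested miRNAs, blue where the adjusted p is below 0.05, with the 5 products in red. The 3p arms sit among other abundant miRNAs that were also lower.

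Markers of other cell types were low, and some moved with the same groups. The 3 muscle miRNAs on the list summed to 113 to 202 CPM with siSFPQ-2 and 134 to 188 CPM with siSFPQ-3, against 332 to 390 CPM in siCtrl, and 2 of the 3 fell (miR-1-3p -1.19 ± 0.23, adjusted p = 0.000240, and miR-133a-3p -0.87 ± 0.26, adjusted p = 0.00756). The 2 tested of 4 blood cell miRNAs summed to 64.3 to 65.6 CPM, 27.1 to 58.4 CPM and 49.5 to 104 CPM in the same groups and neither passed. Of the other blood cell miRNAs, miR-223-3p had at most 2 counts per library and miR-150-5p at most 5, and the liver miRNA miR-122-5p had 0. The neuroendocrine list, in 4 tested members, summed to 59686 to 79205 CPM with siSFPQ-2 and 58242 to 71346 CPM with siSFPQ-3, against 98846 to 112805 CPM in siCtrl, with 2 members lower (miR-9-5p and miR-7-5p) and miR-375-3p higher. Their part in the family's values was not tested.

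NONO knockdown left none of the 5 products past the threshold, in a comparison that called 10 of the 626 miRNAs (1.6%). miR-148a-3p had 6547, 6094 and 6945 CPM with siNONO-3 and 5357, 6183 and 6534 CPM with siNONO-4, against 9208, 6596 and 6801 CPM in siCtrl. Of the 6 siNONO libraries, 5 were below the lowest siCtrl library, and siNONO-4 replicate 1 was the lowest. Its log2 fold change was -0.26 ± 0.13 (unadjusted p = 0.0509, adjusted p = 0.415), with a 95% interval of -0.53 to 0.0011, and -0.16 without siCtrl replicate 1.

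miR-148b-3p had 8395, 7829 and 8972 CPM with siNONO-3 and 7110, 8237 and 8438 CPM with siNONO-4 (log2 fold change -0.22 ± 0.12, adjusted p = 0.526). miR-152-3p had 2108, 1941 and 2339 CPM with siNONO-3 and 2063, 2394 and 2317 CPM with siNONO-4 (-0.14 ± 0.12, adjusted p = 0.706). The NONO libraries of both overlapped siCtrl, with 5 of 6 below its range for miR-148b-3p and 3 of 6 for miR-152-3p. miR-148b-5p had 39.6, 57.7 and 42.0 CPM with siNONO-3 and 32.4, 37.9 and 35.9 CPM with siNONO-4, all siNONO-3 values above and all siNONO-4 values below the narrow siCtrl range (0.07 ± 0.17, adjusted p = 0.960). miR-148a-5p had 12.9, 17.5 and 20.8 CPM with siNONO-3 and 8.69, 22.4 and 29.7 CPM with siNONO-4, with a log2 fold change of 0.50 ± 0.36 (adjusted p = 0.659). Without siCtrl replicate 1, the NONO values were 0.94 for miR-148a-5p, 0.0064 for miR-148b-5p and -0.14 for both miR-148b-3p and miR-152-3p, with none past the threshold. DESeq2 also called 0 of the 5, and 0 had an unadjusted p under 0.05 by edgeR. With each siRNA alone, 0 of the 5 passed by edgeR, where siNONO-3 called 2.56% of tested miRNAs (1.92% higher, 0.639% lower) and siNONO-4 called 0.958% (0.799% higher, 0.16% lower). The lowest unadjusted p was 0.0422, for miR-148a-3p with siNONO-4 (-0.32 ± 0.15, adjusted p = 0.470), where the value was -0.17 without siCtrl replicate 1.

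The SFPQ and NONO siRNAs were set against each other directly, since both share siCtrl. All 5 products were lower with the SFPQ siRNAs, in a contrast where 26.8% of tested miRNAs were lower, 29.7% higher and 56.5% different in all. The log2 differences were -0.77 ± 0.11 for miR-148a-3p (adjusted p = 1.97e-06), -0.73 ± 0.10 for miR-148b-3p (adjusted p = 1.68e-06), -0.73 ± 0.10 for miR-152-3p (adjusted p = 1.02e-06) and -0.78 ± 0.14 for miR-148b-5p (adjusted p = 4.51e-05). For these 4 products the 6 siSFPQ libraries were below all 6 siNONO libraries, a separation that was not counted over all tested miRNAs. The calls held in every alternative run, library totals and spike-in totals included.

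miR-148a-5p, at 7.67 to 17.0 CPM in siSFPQ libraries and 8.69 to 29.7 CPM in siNONO libraries, differed by -0.68 ± 0.28 (adjusted p = 0.0456), with 2 of 6 siSFPQ libraries below the siNONO range. That call was lost in 9 of 12 fits that left out 1 library and in 4 of 9 other alternatives, with values of -0.84 to -0.44 when 1 library was left out and -0.66 to -0.32 otherwise. It is therefore not firm at these counts.

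NEAT1 depletion moved no product past the threshold, and none of the 626 miRNAs passed (0%), with 19 at an unadjusted p under 0.05 by edgeR and 0 called by DESeq2. miR-148a-3p had 6851, 7353 and 8876 CPM with ASO-NEAT1-1047 and 6855, 7503 and 7585 CPM with ASO-NEAT1-1473, against 6377, 7215 and 6803 CPM in ASO-Ctrl. Its log2 fold change was 0.14 ± 0.13, with a 95% interval of -0.13 to 0.41, and 0.13 without ASO-NEAT1-1047 replicate 3, the highest library.

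miR-148b-3p had 9022, 9665 and 11242 CPM with ASO-NEAT1-1047 and 9018, 9851 and 9801 CPM with ASO-NEAT1-1473, against 8494, 9628 and 9058 CPM in ASO-Ctrl (0.11 ± 0.12). miR-152-3p had 2432, 2501 and 2778 CPM with ASO-NEAT1-1047 and 2531, 2637 and 2685 CPM with ASO-NEAT1-1473, against 2343, 2650 and 2498 CPM in ASO-Ctrl (0.05 ± 0.12). The groups overlapped for both. miR-148b-5p had 43.3, 47.9 and 40.6 CPM with ASO-NEAT1-1047 and 31.0, 41.4 and 32.1 CPM with ASO-NEAT1-1473, against 42.1, 41.3 and 46.9 CPM in ASO-Ctrl (-0.15 ± 0.16). miR-148a-5p had 12.5, 19.2 and 31.6 CPM with ASO-NEAT1-1047 and 13.98, 13.9 and 17.9 CPM with ASO-NEAT1-1473, against 13.1, 22.5 and 24.4 CPM in ASO-Ctrl (-0.15 ± 0.34). Without ASO-NEAT1-1047 replicate 3, miR-148a-5p had -0.31 and miR-148b-5p -0.084. The adjusted p of the 5 products lay between 0.908 and 0.911.

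The levels in ASO-Ctrl and siCtrl were also compared. None of the 5 products differed between them past the threshold, with adjusted p of 0.755 to 0.953, where 0.479% of tested miRNAs did. The largest difference was that of miR-148a-5p, 0.61 ± 0.40 (1.03 without siCtrl replicate 1), and that of miR-152-3p, 0.05 ± 0.14, had no fixed sign across the alternatives.

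Ordered by mean CPM over the 8 groups, the siSFPQ-3 and then the siSFPQ-2 libraries were lowest for miR-148a-3p (3126 ± 139 and 4317 ± 344 CPM, SD, n = 3) and miR-148b-3p (4275 ± 223 and 5645 ± 359 CPM), without overlap between them or with any other group. The other 6 groups averaged 6025 to 7693 CPM for miR-148a-3p and 7928 to 9976 CPM for miR-148b-3p, and each overlapped its neighbour in the order. For miR-152-3p the siSFPQ-3 (1266 ± 86.6 CPM) and siSFPQ-2 (1377 ± 47.0 CPM) libraries overlapped each other and lay below the remaining groups, which averaged 2129 to 2617 CPM. For miR-148b-5p the siSFPQ groups, at 23.1 ± 2.64 CPM with siSFPQ-2 and 24.2 ± 2.32 CPM with siSFPQ-3, lay below all others, at 34.8 to 46.4 CPM. For miR-148a-5p every group overlapped the next in the order, with means of 8.61 CPM with siSFPQ-3 to 21.1 CPM with ASO-NEAT1-1047.

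Whether the genes responded alike was asked through log2 ratios of counts within each library, which do not depend on scaling. Both siRNAs or ASOs of a target were set against the control by an exact two-sided permutation test of 6 libraries against 3, with 84 splits and a smallest possible p of 0.0238. None of the 15 tests passed after Benjamini-Hochberg adjustment, the smallest adjusted p being 0.119. With 15 tests, an adjusted p below 0.05 would need many ratios to reach the smallest possible p together. A ratio with complete separation could thus miss the threshold, and a miss does not show that the members moved alike.

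Between the genes, the differences in ratio were small. The miR-148a-3p to miR-148b-3p log2 ratio averaged -0.42 in the siSFPQ libraries and -0.34 in siCtrl, a difference of -0.08 with 6 of 6 siSFPQ libraries below the siCtrl range (exact permutation p = 0.0238, adjusted p = 0.119). The miR-148a-3p to miR-152-3p ratio differed by -0.15 (exact permutation p = 0.286, adjusted p = 0.357) and the miR-148b-3p to miR-152-3p ratio by -0.07 (exact permutation p = 0.548, adjusted p = 0.548). Without siCtrl replicate 1 these differences were -0.055, -0.059 and -0.0040 in the same order. The SFPQ siRNAs did not give the same means. The mean difference from siCtrl in the miR-148a-3p to miR-152-3p ratio was 0.02 for siSFPQ-2 and -0.32 for siSFPQ-3. In the miR-148b-3p to miR-152-3p ratio it was 0.07 for siSFPQ-2 and -0.21 for siSFPQ-3. With 3 libraries against 3 no exact p can fall below 0.1, so each siRNA alone was not tested. The limit on shared reads applies to each of these ratios.

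For NONO the same ratios differed from siCtrl by -0.04, -0.11 and -0.07, with adjusted p of 0.317 to 0.383 by the exact permutation test, and the miR-148b arm ratio by -0.27 (adjusted p = 0.312, exact permutation test). Without siCtrl replicate 1 the NONO differences were -0.015, -0.018 and -0.0028 between the genes and -0.14 for the miR-148b arms. For NEAT1 the ratios between the genes differed from ASO-Ctrl by 0.03, 0.08 and 0.05, and by 0.024, 0.054 and 0.030 without ASO-NEAT1-1047 replicate 3. The 3 ASO-Ctrl libraries were very close in these ratios, with SDs of 0.0016, 0.00054 and 0.0019, so all 6 ASO-NEAT1 libraries lay above their range for miR-148a-3p to miR-148b-3p although the difference was only 0.03 (exact permutation p = 0.0238, adjusted p = 0.119).

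After SFPQ knockdown the arm ratio reached the smallest possible p for miR-148a but not for miR-148b. Neither passed after adjustment, which complete separation of a ratio does not ensure in this test. The log2 ratio of miR-148a-3p to miR-148a-5p averaged 8.30 in the siSFPQ libraries and 9.30 in siCtrl, a difference of -1.0 with 6 of 6 siSFPQ libraries below the siCtrl range (exact permutation p = 0.0238, adjusted p = 0.119). The miR-148b-3p to miR-148b-5p ratio averaged 7.70 and 7.93 in the same groups, a difference of -0.23 with 4 of 6 below (exact permutation p = 0.310, adjusted p = 0.357). Without siCtrl replicate 1 the miR-148b difference was -0.098. The difference between the hairpins was not tested.

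The miR-148a arm ratio depended on which libraries it was set against. The siCtrl libraries had 8.79 to 9.95 with an SD of 0.59, the widest of the siRNA groups but for siNONO-4, and the highest was replicate 3 with its 12 counts of miR-148a-5p. Without that library the SFPQ difference was -0.68, and without siCtrl replicate 1 it was -1.26. The siNONO libraries, at a mean of 8.48, differed from siCtrl by -0.82 (4 of 6 below its range, exact permutation p = 0.119, adjusted p = 0.312), by -0.50 without siCtrl replicate 3 and by -1.08 without replicate 1, and the ASO-Ctrl libraries averaged 8.45. The ASO-NEAT1-1047 and ASO-NEAT1-1473 libraries averaged 8.59 and 8.89. The siCtrl mean was the highest of the 8 groups, but its range overlapped those of siNONO-3, siNONO-4, both ASO-NEAT1 groups and ASO-Ctrl. Against the siNONO libraries both arms of miR-148a had similar log2 differences, -0.77 for miR-148a-3p and -0.68 for miR-148a-5p. For NEAT1 the miR-148a arm ratio differed from ASO-Ctrl by 0.30 and the miR-148b arm ratio by 0.26 (adjusted p = 0.357 and 0.312, exact permutation test).

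**Figure D5:**
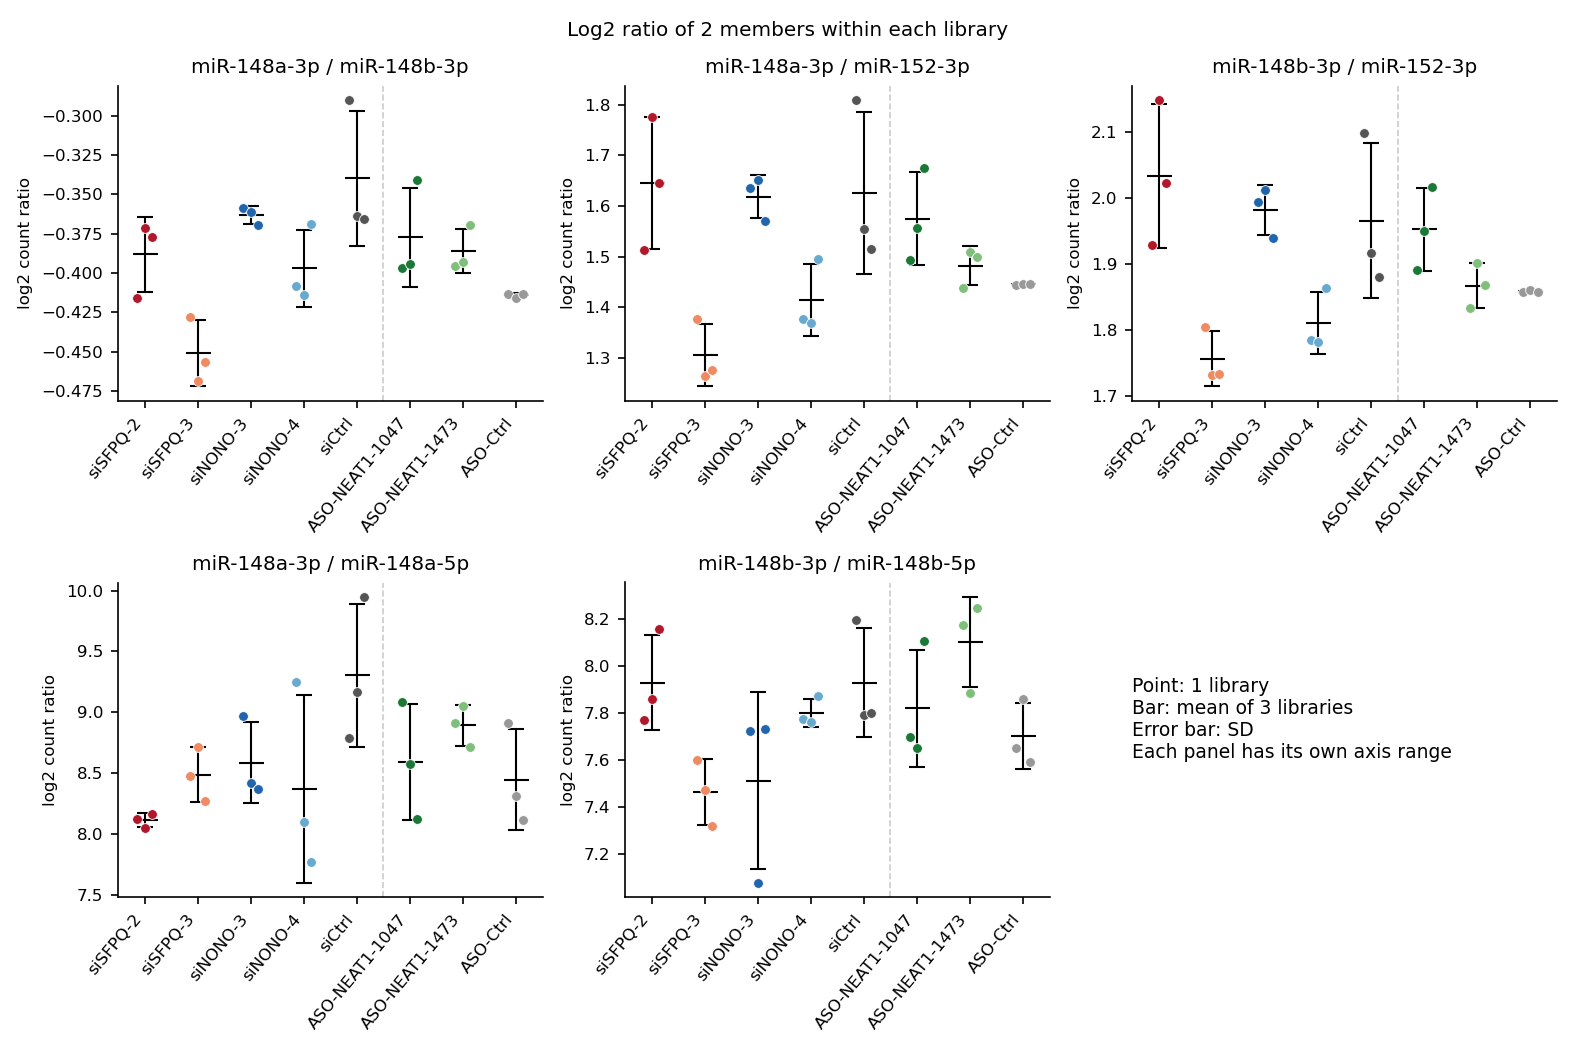
Log2 ratios of counts between members within each library (vertical axes, each panel with its own range) for the 8 groups. Points are libraries, bars the mean of 3 libraries and error bars the SD. The mean miR-148a-3p to miR-148a-5p ratio is highest in siCtrl, whose libraries lie at 8.79 to 9.95 and overlap those of both siNONO groups.

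Across the 24 libraries, log2 CPM of miR-148a-3p and miR-148b-3p had a Pearson r of 0.998, against 0.97 for miR-148b-3p with miR-152-3p, 0.78 for miR-148b-3p with miR-148b-5p and 0.57 for miR-148a-3p with miR-148a-5p. The low-count 5p rows carry more counting noise, and all rows share library scaling and the difference of the siSFPQ libraries from the rest. Outside the family, the closest of the 390 miRNAs with a mean of at least 10 CPM were miR-421 (r = 0.94), miR-4454 (0.93) and miR-598-3p (0.93) to miR-148a-3p. The same 3 were closest to miR-148b-3p, each at 0.94. For miR-152-3p they were miR-651-5p, miR-4454 and miR-421, each at 0.96.

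Other miRNAs reported to repress DNA methyltransferase messenger RNAs were read from the same fit, as functional neighbours of the family chosen from textbook knowledge. Of 7, all tested, 0 were higher and 2 lower after SFPQ knockdown, with a median log2 fold change of -0.33, against 25.6% higher, 22.7% lower and a median of 0.02 over all tested miRNAs. miR-143-3p fell by 0.70 ± 0.20 on the log2 scale (adjusted p = 0.00731) and miR-29b-3p by 0.46 ± 0.17 (adjusted p = 0.0269). The others were miR-342-3p (-0.47 ± 0.31), miR-185-5p (-0.33 ± 0.14), miR-101-3p (-0.18 ± 0.21), miR-29a-3p (0.06 ± 0.12) and miR-29c-3p (0.05 ± 0.12). The last pair differ at 1 base and are one of those close pairs. For miR-29b-3p the siCtrl libraries spread over 8315 to 15927 CPM, with siSFPQ-2 at 8708 to 11449 CPM and siSFPQ-3 at 7380 to 8783 CPM, so the groups overlapped. Values with single libraries left out are not given for this list. None of the 7 passed after NONO knockdown or NEAT1 depletion, by edgeR. At an unadjusted p under 0.05 by edgeR, miR-185-5p (0.48 ± 0.14) and miR-143-3p (0.61 ± 0.21) were higher after NONO knockdown. At the same level miR-185-5p was lower after NEAT1 depletion (-0.33 ± 0.14). The NONO siRNAs differed for miR-143-3p, with 262 to 388 CPM with siNONO-3 and 120 to 187 CPM with siNONO-4. The latter overlapped siCtrl, at 136 to 163 CPM.

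Set directly against the NONO siRNAs, the SFPQ siRNAs gave lower levels in 4 of these 7, where 26.8% of all tested miRNAs were lower and 56.5% different in all. The log2 differences were -1.31 ± 0.17 for miR-143-3p (adjusted p = 9.19e-07), -0.81 ± 0.12 for miR-185-5p (adjusted p = 3.05e-06), -0.54 ± 0.17 for miR-101-3p (adjusted p = 0.0102) and -0.34 ± 0.14 for miR-29b-3p (adjusted p = 0.0440). The most abundant of the list, miR-29a-3p and miR-29c-3p, differed by -0.03 each.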

How the data were processed

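The authors deposited raw counts for each mature miRNA locus and each spike-in, made with featureCounts 2.0.3 on hg38 per the file headers and the labels. The submitters' processing notes also name Trimmomatic 0.39, Bowtie 1.3.0, UMI-tools 1.1.1 and DESeq2 1.38.1. Order, mismatches allowed and collapse of identifiers are not given in the sources used here. Counting precision covers counting error only. QIAseq libraries were made from 100 ng of total RNA with spike-ins, per the labels' protocols.

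Names came from RefSeq by position (2357 mature entries within 3 bases, 291 hairpins with arm, 4 unnamed). The locus with the largest total stood for a miRNA with several. Counts were fitted with edgeR 4.0.16 (TMM, filterByExpr with a minimum count of 10, 1 model of 24 libraries, 16 residual degrees of freedom), keeping 99.97% of counts. Every adjusted p not otherwise named is from its quasi-likelihood test, adjusted over the 626 miRNAs by Benjamini-Hochberg with a threshold of 0.05. Standard errors came from the log2 fold change and the F statistic. CPM use TMM library sizes. A knockdown is the mean of both reagents minus the control. Ratios had 0.5 counts added. The fit was tested on simulated data. Named miRNAs are the 5 products, miR-152-5p, the 7 list members and the 3 of highest correlation. Members, lists and markers were chosen with earlier results of these data known. miR-124-3p was not analysed here. Alternatives were RLE factors, library and spike-in totals, other filters, replicate number, only the compared groups, DESeq2 1.42.0, summed loci, each library left out, other pseudocounts and single reagents. All 24 replicate pairs differed by more than sampling noise.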

Additional observations from a re-analysis of the deposited data

Results flagged for a closer look

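The SFPQ and NONO siRNAs gave different levels of all 5 products in the direct contrast of both knockdowns, each with an adjusted p under 0.05 by edgeR. In this contrast 56.5% of the 626 tested miRNAs differed, 26.8% lower and 29.7% higher, so a difference was common. The log2 differences, SFPQ minus NONO, were -0.77 for miR-148a-3p, -0.73 for miR-148b-3p, -0.73 for miR-152-3p, -0.78 for miR-148b-5p and -0.68 for miR-148a-5p. The last was lost in 9 of 12 fits without 1 library.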

How the results depend on the processing

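Over the alternatives run, the SFPQ calls of the 3p arms, and the SFPQ minus NONO calls of the 3p arms and miR-148b-5p, kept their direction and passed each time. The range over all libraries left out was -1.13 to -0.90 for miR-148a-3p, -1.04 to -0.85 for miR-148b-3p, -0.93 to -0.83 for miR-152-3p and -0.75 to -0.64 for miR-148b-5p after SFPQ knockdown. miR-148b-5p lost its SFPQ call on library totals and with no filter, and single siRNAs lost calls as given with their values. Depth limits the 5p arms, and the cause of each change below was not tested.

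On library totals, 252 miRNAs were higher and 67 lower after SFPQ knockdown (160 and 142 with TMM), 17 were higher after NONO knockdown (6 with TMM), and 93 were lower for SFPQ minus NONO (168 with TMM). On spike-in totals, 90 were lower after SFPQ knockdown, 3 higher after NONO knockdown and 95 lower for SFPQ minus NONO. With a mean of at least 10 CPM, where fewer miRNAs were tested, 96 were higher after SFPQ knockdown and 118 for SFPQ minus NONO (186 otherwise). With only the compared groups, 93 were lower after SFPQ knockdown, and 3 higher and 0 lower after NONO knockdown. For NONO, no filter gave 11 higher and 8 lower, DESeq2 13 higher and 7 lower, summed loci 14 higher, and leaving out 1 library 3 to 12 higher and 2 to 5 lower, against 6 and 4. Same-numbered replicates had correlations of -0.29 to 0.62, with 14 of 27 above 0.1. In no comparison with a control were all of them above 0.1, so replicate number was not taken as a pairing, although the ASO-NEAT1 groups correlated with each other at 0.38 to 0.54. With replicate number as a block, NONO knockdown gave 12 higher and 12 lower, and miR-148a-3p after SFPQ knockdown was -1.04.

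These signs turned, none in a call. miR-148a-5p after SFPQ knockdown became 0.28 (library totals) and 0.035 (spike-in totals) (leaving out 1 library, -0.49 to 0.29). miR-148b-5p after NONO knockdown became -0.031 on spike-in totals and -0.035 with at least 10 CPM (-0.074 to 0.092). With siNONO-4 on library totals, miR-148b-5p became 0.0034 and miR-152-3p 0.031. With ASO-NEAT1-1047, miR-148b-5p became -0.0066 with no filter, -0.0026 with only the compared groups and -0.0026 with summed loci (-0.093 to 0.12). Leaving out 1 library gave -0.12 to 0.66 for miR-148a-5p with siSFPQ-2, -0.015 to 0.32 for miR-148b-5p with siNONO-3, and with ASO-NEAT1-1047 -0.27 to 0.28 for miR-148a-5p and -0.0080 to 0.035 for miR-152-3p. siSFPQ-3 minus siSFPQ-2 became 0.10 for miR-148a-3p, 0.16 for miR-148b-3p and 0.42 for miR-152-3p on spike-in totals, and 0.024 for miR-152-3p on library totals. For ASO-Ctrl minus siCtrl, miR-152-3p became -0.030 with RLE factors, -0.085 with at least 10 CPM, -0.0021 with only the compared groups and -0.030 with DESeq2 (-0.031 to 0.037).

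Some differences in ratio moved when a single reagent was set against its control. Those given here lay further than the control SD from the difference of both reagents together. For siSFPQ-2 and siSFPQ-3 they were 0.019 and -0.32 (miR-148a-3p to miR-152-3p), 0.068 and -0.21 (miR-148b-3p to miR-152-3p) and 0.00086 and -0.47 (miR-148b arms). For ASO-NEAT1-1047 and ASO-NEAT1-1473 they were 0.037 and 0.028 (miR-148a-3p to miR-148b-3p), 0.13 and 0.037 (miR-148a-3p to miR-152-3p), 0.093 and 0.0084 (miR-148b-3p to miR-152-3p) and 0.12 and 0.40 (miR-148b arms).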
